A study of Mus musculus with 7 samples.

Results

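Non-chemokine cytokines were taken here as 10 genes of the deposited count table, chosen by symbol: the growth-factor cytokines Csf1, Il34 and Lif, the TNF-family ligands Tnf, Tnfsf9 and Tnfsf10, and the interleukins Il6, Il1b, Il15 and Il23a. All 10 were found among its 23329 gene symbols. RNA came from Beta-TC6, an insulin-secreting line from a mouse pancreatic beta-cell tumour, in 2 groups: wild-type cells treated with IL1B (interleukin-1 beta, 3 libraries) and wild-type cells treated with vehicle (4 libraries). Both groups had grown in medium with 15% fetal bovine serum, and both had been synchronised by 10 µM forskolin, which raises cAMP, for 1 h. The sources used here give neither the IL1B dose, its duration nor the harvest time. Nothing in the labels ties replicates to separate cultures, and p-values then measure only the spread between libraries, which may be technical.

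Cytokines are secreted or membrane-bound proteins through which cells signal to each other. IL-1 beta binds its receptor, and the adaptor MyD88 and the IKK kinases then release NF-kB, a transcription factor that binds kB sites in DNA and switches on cytokine genes in many cell types. CSF1 and IL-34 both bind the CSF1 receptor of macrophages, LIF and IL-6 signal through the shared chain gp130, and TNF-family ligands act on receptors that can drive inflammation or cell death. Many cytokine mRNAs also carry AU-rich elements in the 3′ untranslated region (3′ UTR), which RNA-binding proteins use to shorten the mRNA's life. IL-1 beta and TNF are cytokines long studied in beta-cell damage in diabetes.

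Promoter windows, from 250 bases before to 50 bases after the annotated start, were in the RefSeq table (GRCm38.p6) for 6 of the 10 genes: Csf1, Tnf, Lif, Il6, Il1b and Tnfsf10. They were searched on both strands for the NF-kB consensus motif, of which 3 of the 6 windows (Csf1, Lif and Il6) held a match, against 8.46% of 32841 promoter windows of the same length. Csf1 and Tnf are shown as the transcripts with the largest IL1B levels, and Lif and Il6 as genes with a match and few reads. Capitals mark the match. The windows lie on chromosome 3 for Csf1 (chr3:107760420-107760719, minus strand), chromosome 17 for Tnf (chr17:35201958-35202257, minus strand), chromosome 11 for Lif (chr11:4257318-4257617, plus strand) and chromosome 5 for Il6 (chr5:30012864-30013163, plus strand).
Csf1: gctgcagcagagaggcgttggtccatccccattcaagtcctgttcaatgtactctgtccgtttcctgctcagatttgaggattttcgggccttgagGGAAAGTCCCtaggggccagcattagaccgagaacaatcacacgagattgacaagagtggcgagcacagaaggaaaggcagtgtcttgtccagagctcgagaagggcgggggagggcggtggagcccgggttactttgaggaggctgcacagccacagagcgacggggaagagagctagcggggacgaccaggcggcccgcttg
Tnf: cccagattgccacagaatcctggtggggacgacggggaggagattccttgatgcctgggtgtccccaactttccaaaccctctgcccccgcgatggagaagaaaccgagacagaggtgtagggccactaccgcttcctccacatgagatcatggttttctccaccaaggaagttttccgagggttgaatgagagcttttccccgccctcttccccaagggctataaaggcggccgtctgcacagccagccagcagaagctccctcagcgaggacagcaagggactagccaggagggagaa
Lif: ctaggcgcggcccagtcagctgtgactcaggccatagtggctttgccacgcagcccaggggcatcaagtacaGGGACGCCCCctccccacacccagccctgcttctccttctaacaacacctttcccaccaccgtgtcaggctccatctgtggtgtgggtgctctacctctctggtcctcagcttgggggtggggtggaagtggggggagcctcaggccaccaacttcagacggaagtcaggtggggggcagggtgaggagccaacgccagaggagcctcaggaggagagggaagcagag
Il6: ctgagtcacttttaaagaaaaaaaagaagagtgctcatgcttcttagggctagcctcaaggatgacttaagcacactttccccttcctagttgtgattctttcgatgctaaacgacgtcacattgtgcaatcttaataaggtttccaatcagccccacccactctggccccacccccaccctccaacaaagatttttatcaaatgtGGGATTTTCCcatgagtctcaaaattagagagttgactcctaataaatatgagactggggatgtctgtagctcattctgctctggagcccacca

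The Csf1 match lay 154 to 145 bases before the start and reads GGGACTTTCC on the strand opposite to the gene, whose own strand is printed. The Il6 match, GGGATTTTCC, lay 44 to 35 bases before the start on the gene's strand. In Lif, GGGACGCCCC, 178 to 169 bases before the start, matched on both strands. The Tnf, Il1b and Tnfsf10 windows held no match, which says only that these letters are not in those windows. A looser motif on either strand, GGG and CC set apart by any 5 bases, which also takes in every consensus match, was in 4 of the 6 windows, Tnf included, and in 50.8% of all windows.

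The 3′ UTRs of the transcripts were compared by their number of ATTTA pentamers, the core of AU-rich elements, on the transcript strand of the GENCODE M21 annotation (GRCm38). Tnf held 8 in 764 bases, and 0.431% of 2322 genes with a 3′ UTR within 20% of that length held as many or more. Il6 held 6 in 427 bases (0.419% of genes of similar length had as many), Il23a 6 in 657 bases (1.48%) and Il1b 4 in 459 bases (3.38%). Csf1 held 4 in 2111 bases, where 49.2% of genes of similar length held as many or more, and Lif (38.8%), Tnfsf10 (43.3%), Il34 (47.5%), Il15 (35.9%) and Tnfsf9 (9.43%) were not among the densest either. The nonamer TTATTTATT occurred 5 times in Tnf, 2 times in Lif and 1 time in Il23a, and was found in 4.18%, 14.6% and 3.95% of genes with 3′ UTRs of similar length. The 30-base window with the most pentamers is shown for the 4 transcripts densest in ATTTA against genes of similar length, with the pentamers in capitals.
Tnf: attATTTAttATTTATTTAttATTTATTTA
Il6: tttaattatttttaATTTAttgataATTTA
Il23a: agtatagatgatggttATTTAttctATTTA
Il1b: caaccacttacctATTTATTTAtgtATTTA

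**Figure D1:**
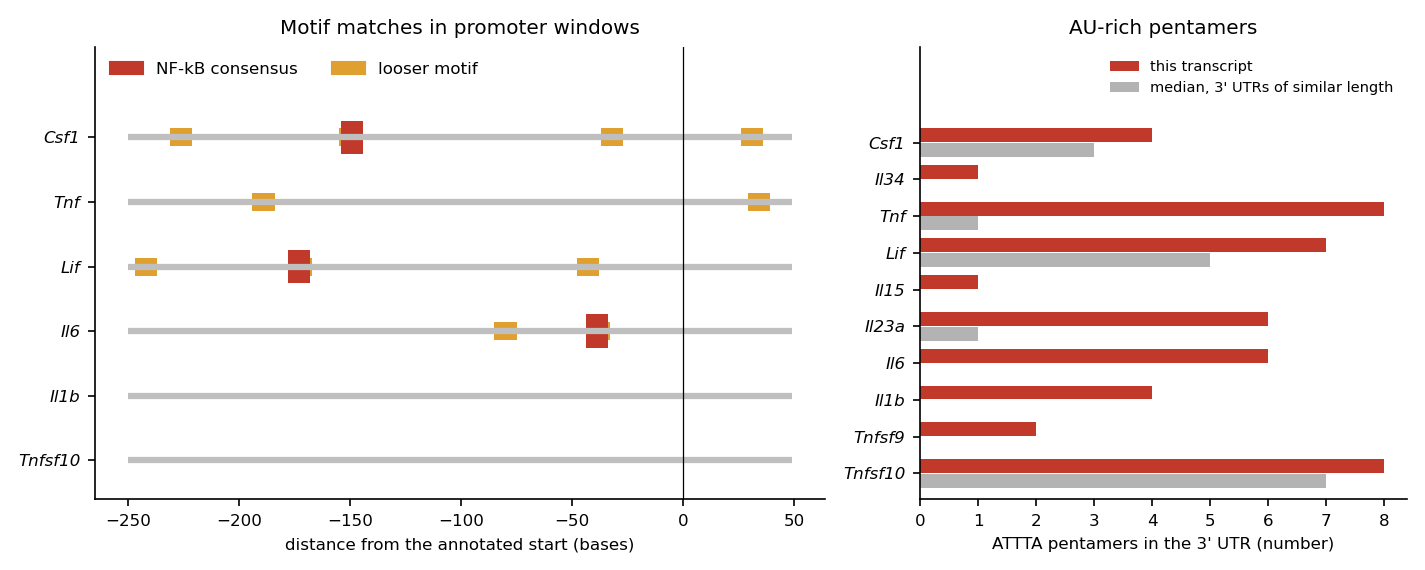
Motifs near the cytokine genes. Left, matches to the NF-kB consensus (red) and to the looser motif (yellow) along the 6 promoter windows, by distance from the annotated start in bases; Csf1, Lif and Il6 carry a consensus match. Right, number of ATTTA pentamers in each 3′ UTR (red) and the median of 3′ UTRs within 20% of its length (grey, at 0 where no grey bar is drawn); Tnf and Tnfsf10 hold 8 each, with medians of 1 and 7.

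IL1B libraries held 6007723 to 6969745 counts and vehicle libraries 5335607 to 7513934. Levels are CPM (counts per 1e6 tested-gene counts, TMM-scaled), given as mean ± SD with n = 3 IL1B and n = 4 vehicle libraries, and tests are edgeR's quasi-likelihood F test over the 12480 genes past its low-count filter, Benjamini-Hochberg adjusted, with a threshold of 0.05. The second library of each group stood apart. Across genes, deviations of vehicle library 2 from its group's mean fell with exon length (Spearman rho -0.50). For vehicle libraries 1, 3 and 4 rho was 0.19 to 0.27, which is partly set by library 2, since the mean includes it. IL1B library 2 had no such length trend (rho -0.0045). For IL1B library 2, chi-square per degree of freedom was 4.04 against library 1 and 2.79 against library 3, beside 1.71 for libraries 1 and 3. The labelled cell type showed in all 12 beta-cell markers tested, with Ins2 at 22372 ± 715 CPM in IL1B and 21183 ± 1599 CPM in vehicle libraries. Of these 12, edgeR, DESeq2 and limma-voom each called 3 lower and 0 higher with IL1B. Over all tested genes edgeR called 3.25% lower and 7.76% higher. At an unadjusted edgeR p under 0.05, 5 of the 12 were lower and 3 higher. The 3 called lower were the transcription factor genes Pdx1 (239 ± 7.96 CPM with IL1B and 354 ± 6.40 with vehicle, edgeR adjusted p = 3.0e-07), Mafa (152 ± 1.05 and 211 ± 8.84, 7.0e-06) and Nkx2-2 (120 ± 9.93 and 143 ± 2.07, 0.0124). Leukocytes are a usual source of several of these cytokines. Of 20 leukocyte markers only Cd68 passed the filter (1.87 ± 0.81 CPM with IL1B and 1.70 ± 0.79 with vehicle), and the list summed to 7.15 to 7.43 CPM in IL1B and 5.66 to 6.73 CPM in vehicle libraries. The pan-leukocyte gene Ptprc had 9 counts over the IL1B and 8 over the vehicle libraries, and Aif1, Tyrobp and Nkg7 had 0 in all 7.

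Of the 10 cytokines 8 passed the filter, 5 of them were higher with IL1B and none was lower, against a background of 7.76% of tested genes called higher and 3.25% called lower. DESeq2 and limma-voom, and edgeR's unadjusted p at 0.05, gave none lower either. Csf1, Lif, Tnfsf9 and Tnfsf10 passed the filter in vehicle libraries as well, and Csf1 and Tnfsf10 of these 4 rose. Tnf, Il15, Il23a and Il1b passed through their IL1B counts, so the count over the 8 favours higher calls by construction and is not read further. The groups did not overlap in the 5 called genes, as in 12.1% of all tested genes on the higher side and 8.83% on the lower. In bulk RNA, more cells with a transcript and more of it per cell cannot be told apart.

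**Figure D2:**
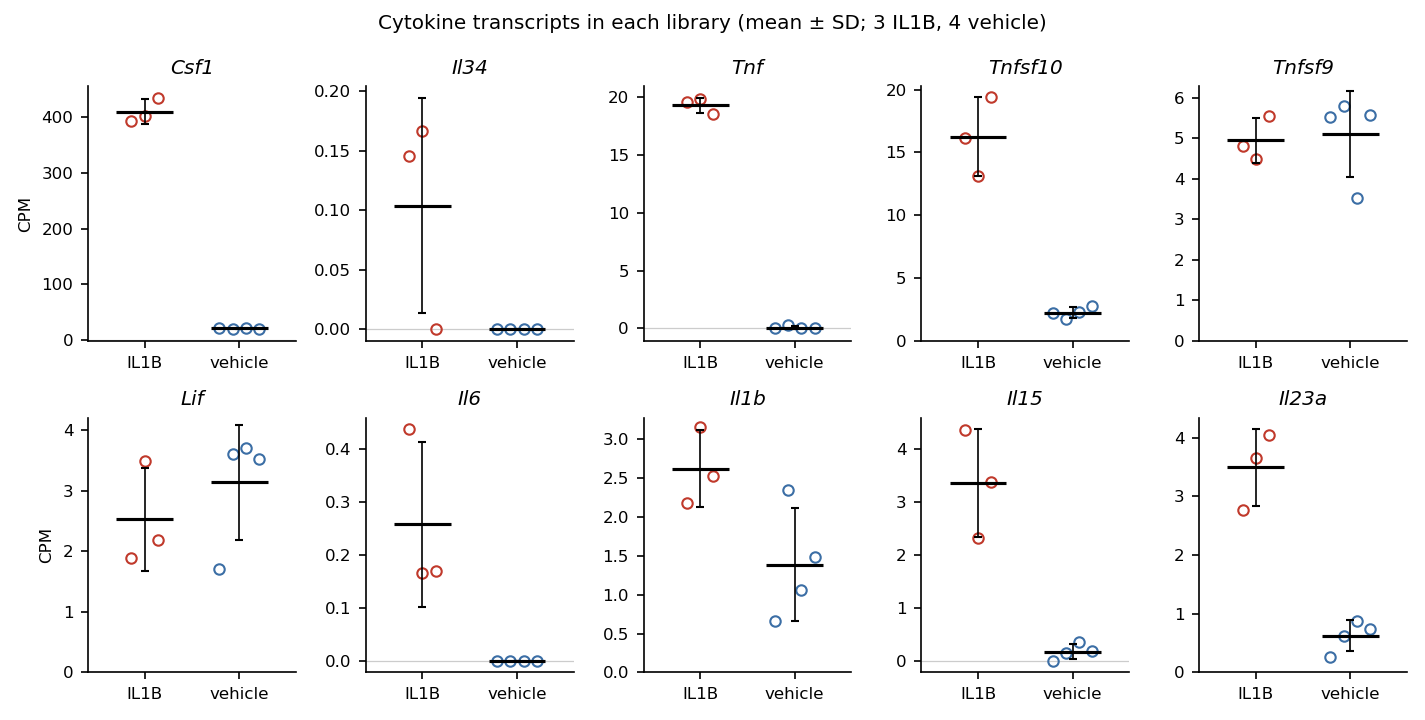
CPM of the 10 cytokine transcripts in each library (circles), with IL1B left and vehicle right in every panel; black lines are means and bars SD (n = 3 and n = 4), and each panel has its own linear axis. Csf1, Tnf, Tnfsf10, Il15 and Il23a have no overlap between groups, nor has Il6, which has at most 3 counts in a library. Lif, Tnfsf9, Il1b and the hardly read Il34 do overlap.

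Csf1, the growth factor that keeps macrophages alive and dividing, dominated the set in IL1B libraries. The gene lies on chromosome 3 (107741048 to 107760469, minus strand, GRCm38). Csf1 stood at 394, 402 and 436 CPM in the IL1B libraries, against 21.2, 19.7, 21.7 and 18.6 CPM in the vehicle libraries. All IL1B libraries were close together and far above all vehicle libraries, and the coefficient of variation was 5.37% in IL1B and 6.99% in vehicle libraries. The log2 fold change was 4.33 (SE 0.07, edgeR adjusted p = 5.6e-19), the 21st largest among tested genes, and each of 15 alternatives gave 19.6-fold to 20.6-fold. Csf1 held 88.6% of the reads of the 10 genes over IL1B libraries and 61.7% over vehicle libraries. These shares do not allow for exon length, and per kb of exon Csf1 and Tnfsf9 overlapped in vehicle libraries.

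Il34, the other ligand of the CSF1 receptor (chromosome 8, 110741829 to 110805924), was hardly read. It had 1, 1 and 0 counts in the IL1B libraries and 0 in every vehicle library, which is at or under the floor of 3 counts in both groups (0.16 CPM over the IL1B and 0.12 CPM over the vehicle libraries), so no fold is given. The receptor gene Csf1r was also nearly unread, with 5 counts over the IL1B and 7 over the vehicle libraries.

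Lif, a cytokine of the IL-6 family (chromosome 11, 4257557 to 4272514), had 1.89, 3.49 and 2.19 CPM in the IL1B libraries, against 1.71, 3.60, 3.70 and 3.53 CPM in the vehicle libraries. The groups overlapped, and the first vehicle library was lower than the other 3. The log2 fold change was -0.29 (SE 0.32, 95% interval -0.95 to 0.38, edgeR adjusted p = 0.668), which spans 0.516-fold to 1.30-fold at this depth of 47 IL1B and 76 vehicle counts.

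Among TNF-family ligands, Tnf and Tnfsf10 rose and Tnfsf9 did not pass. Tnf, the inflammatory cytokine the family is named for (chromosome 17, 35199381 to 35202007), had 134, 119 and 110 counts in the IL1B libraries, against 0, 2, 0 and 0 in the vehicle libraries. Its IL1B level of 19.3 ± 0.646 CPM was the least variable of the set, with a coefficient of variation of 3.35%. Summed counts gave a ratio of 242 (95% counting interval 66.4 to 2003; edgeR adjusted p = 2.9e-12). Both vehicle counts came from the second vehicle library, and without it Tnf was at least 120-fold higher, against a floor of 3 counts over the other 3 vehicle libraries.

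Tnfsf10 encodes TRAIL, a ligand of death receptors (chromosome 3, 27317028 to 27342427). It had 16.2, 13.1 and 19.4 CPM in the IL1B libraries, against 2.24, 1.72, 2.29 and 2.79 CPM in the vehicle libraries. The lowest IL1B library was well above the highest vehicle library. The increase was 7.19-fold, or 2.85 on the log2 scale (SE 0.20, edgeR adjusted p = 2.3e-09), with 6.53-fold to 7.86-fold over the alternatives.

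Tnfsf9 encodes 4-1BBL, a ligand that costimulates T cells (chromosome 17, 57105325 to 57107757). It had 4.81, 4.49 and 5.57 CPM in the IL1B libraries, against 5.53, 5.79, 3.53 and 5.57 CPM in the vehicle libraries. The groups overlapped. Their log2 difference was -0.06 (SE 0.21, edgeR adjusted p = 0.921), with a 95% interval of 0.709-fold to 1.31-fold. Its exons share 192 bases (14.9%) with Gm11110 on the opposite strand, and the sources used here do not give the strand setting of the counting, so the 2 genes' reads may not be fully separated.

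Il15 and Il23a rose at low levels. Il15 encodes a cytokine for natural killer and memory T cells (chromosome 8, 82331632 to 82403222). It had 30, 14 and 20 counts in the IL1B libraries, against 0, 1, 2 and 1 in the vehicle libraries. Every IL1B library was above every vehicle library, and summed counts gave a ratio of 21.3 (95% counting interval 7.93 to 80.6; edgeR adjusted p = 8.7e-06).

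Il23a encodes p19, the subunit of IL-23 that pairs with the p40 subunit of the Il12b gene (chromosome 10, 128296139 to 128298752). It had 2.77, 3.66 and 4.05 CPM in the IL1B libraries, against 0.263, 0.626, 0.881 and 0.743 CPM in the vehicle libraries. The groups were apart by more than their spread. Il23a was 5.61-fold higher, a log2 difference of 2.49 (SE 0.38, edgeR adjusted p = 9.0e-05). Its partner Il12b had 4 counts over the IL1B and 2 over the vehicle libraries, too few to test.

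Il1b, the cells' own transcript of the cytokine they were treated with (chromosome 2, 129364570 to 129371139), did not pass. It had 2.19, 3.16 and 2.53 CPM in the IL1B libraries, against 0.658, 2.35, 1.06 and 1.49 CPM in the vehicle libraries. The second vehicle library, the one that stood apart over all genes, lay within the IL1B range. The log2 fold change was 0.93 (SE 0.37, edgeR adjusted p = 0.133), with an unadjusted p of 0.0221. Without the second vehicle library Il1b passed, with a log2 fold change of 1.34 (edgeR adjusted p = 0.028), and this was the 1 of 15 alternatives that passed (adjusted p 0.028 to 0.382 over the 15).

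Il6, a cytokine of fever and the acute phase (chromosome 5, 30013114 to 30019981), stayed below the filter. It had 3, 1 and 1 counts in the IL1B libraries and 0 in every vehicle library (95% counting interval of the ratio from 1.22 upward). With no low-count filter it did not pass (edgeR adjusted p = 0.146), and Il34 did not either (edgeR adjusted p = 0.482).

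**Figure D3:**
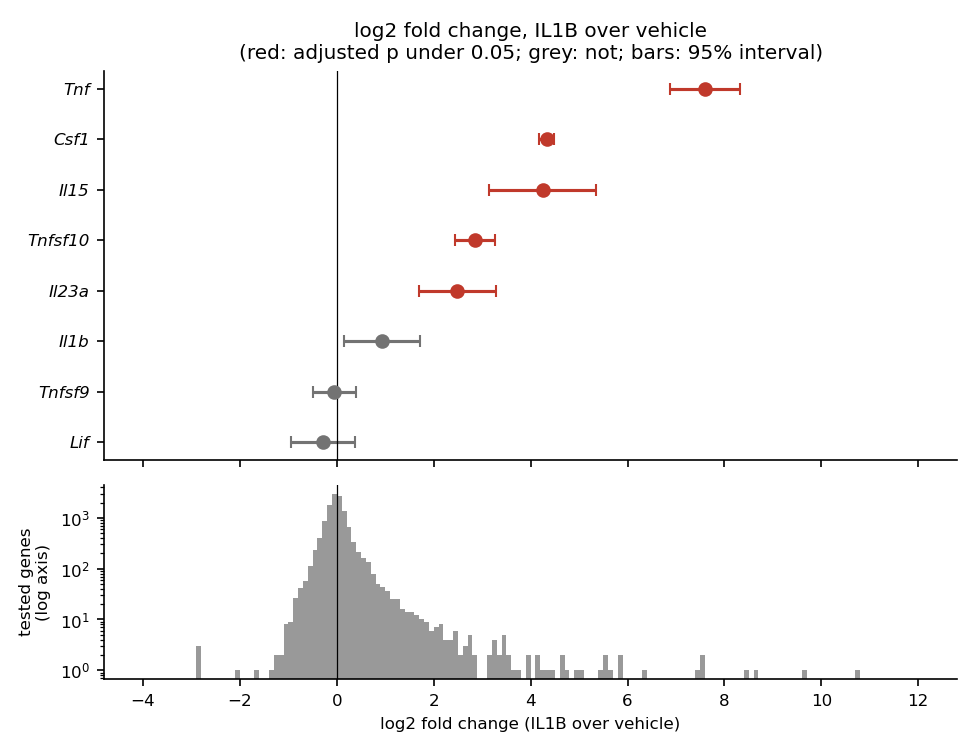
Upper panel, log2 fold change of IL1B over vehicle for the 8 tested cytokines. Bars are nominal 95% intervals from each gene's own fit, not adjusted for the number of genes. Tnf, Csf1, Il15, Tnfsf10 and Il23a (red) passed the threshold. With few vehicle counts, the bars of Tnf (117-fold to 319-fold) and Il15 (8.76-fold to 41.0-fold) are too narrow. They lie inside the counting intervals of 66.4 to 2003 and 7.93 to 80.6. Lower panel, the log2 fold change over all 12480 tested genes on a log count axis, with its median at -0.01.

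Levels of different genes were compared per exon length, as CPM per kb of exon. With IL1B, Csf1 was highest at 77.8 ± 4.17 CPM per kb, followed by Tnf at 11.8 ± 0.394. Tnfsf9 (3.84 ± 0.429) and Tnfsf10 (3.08 ± 0.595) came next, and their libraries overlapped. Il23a (1.55 ± 0.292), Il15 (1.48 ± 0.452) and Il1b (1.38 ± 0.259) could not be ordered beyond their spread, and Lif (0.581 ± 0.195), Il6 (0.106 ± 0.0641) and Il34 (0.0531 ± 0.0463) were lowest, the last 2 with overlapping libraries.

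In vehicle libraries Tnfsf9 (3.96 ± 0.821 CPM per kb) and Csf1 (3.84 ± 0.269) were the highest and overlapped. Il1b (0.728 ± 0.380), Lif (0.721 ± 0.219), Tnfsf10 (0.429 ± 0.0825), Il23a (0.280 ± 0.118), Il15 (0.0768 ± 0.0639) and Tnf (0.0478 ± 0.0955) followed, each overlapping the next, while Il6 and Il34 had no count. By mean, Tnf came after Csf1 alone in IL1B libraries and after 7 of the other genes in vehicle libraries. Over the 10 genes the summed level was 463 ± 24.5 CPM with IL1B and 33.1 ± 1.14 CPM with vehicle, and without Csf1 it was 52.8 ± 2.77 and 12.8 ± 2.01 CPM.

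**Figure D4:**
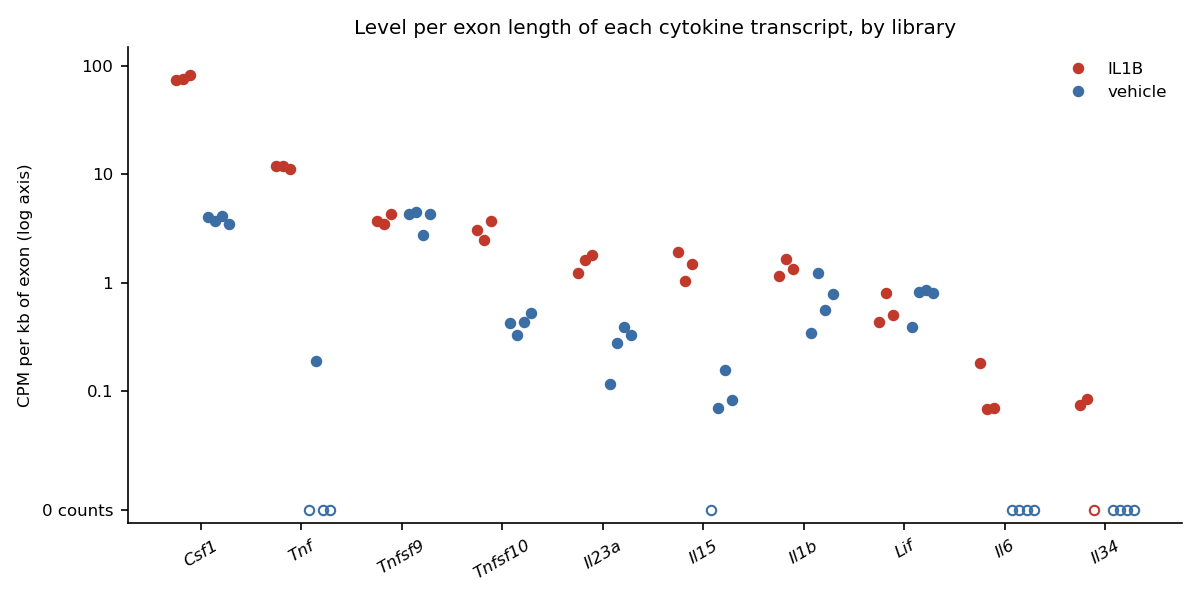
CPM per kb of exon on a log axis for each cytokine and library, IL1B left (red) and vehicle right (blue), ordered by the IL1B mean; open circles mark libraries with 0 counts. Csf1 spans 74.7 to 82.5 in IL1B and 3.52 to 4.11 in vehicle libraries.

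The genes most like Csf1 by Pearson's r of log2 CPM over the 7 libraries were Nfkbia (r = 0.9994), Slc37a1 (0.9987), Stx11 (0.9986), Jun (0.9986) and Phlda1 (0.9986). The libraries form 2 groups, which sets most of each r, and 86 genes had an r above 0.99, so the ranking is a description only. Nfkbia encodes the NF-kB inhibitor IkBa and Jun a subunit of AP-1. Their fold changes ran from 2.18-fold for Phlda1 to 44.1-fold for Stx11, on either side of that of Csf1.

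Neighbouring genes were examined for each cytokine gene. Of the nearest tested gene on each side of the 10 (20 genes) and Gm11110, 1 was called higher and none lower. The shares over all tested genes were 7.76% higher and 3.25% lower. The counts of called neighbours are near these shares and are not read further. The gene called higher was Nfkbil1, 18.2 kb from Tnf. It stood at 28.3 CPM with IL1B and 17.6 CPM with vehicle (1.59-fold, edgeR adjusted p = 2.1e-04). Lta and Ltb, the TNF-family genes that flank Tnf, were below the filter, with 7 and 16 counts over the IL1B and 2 and 3 over the vehicle libraries. With no low-count filter Ltb passed (log2 fold change 2.63, edgeR adjusted p = 0.0308). Stat2 and Pan2, within 5 kb of Il23a, had log2 fold changes of -0.05 (SE 0.08) and -0.06 (SE 0.10) and did not pass.

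Of 19 genes for receptors and binding proteins of the 10 cytokines, 11 were tested, 3 were higher and 2 lower, beside 7.76% higher and 3.25% lower over all tested genes, and the median log2 fold change was -0.02, against -0.01 over all tested genes. Il6st, which encodes gp130, stood at 121 ± 8.41 CPM with IL1B and 76.6 ± 5.22 CPM with vehicle (1.58-fold, edgeR adjusted p = 1.4e-06). The syndecan Sdc1, a heparan sulfate proteoglycan, rose 1.20-fold, and Il1r1 1.19-fold (edgeR adjusted p 0.0178 and 0.0167). Lifr and Ptprz1, named after their values were seen, fell 1.27-fold and 1.21-fold (edgeR adjusted p 0.0478 and 0.0295). DESeq2 called neither and limma-voom did not call Lifr. Leaving out any library but the second vehicle library removed at least 1 of the calls of Sdc1, Il1r1, Lifr and Ptprz1 (edgeR adjusted p 0.0515 to 0.196 where lost). The TNF receptor Tnfrsf1a stood at 33.7 ± 0.454 CPM with IL1B and 36.1 ± 4.91 CPM with vehicle (edgeR adjusted p = 0.675).

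Of 12 genes whose proteins pair with, cut, release or block these cytokines, 6 were tested, 2 rose and 1 fell. Over all tested genes 7.76% were higher and 3.25% lower. The median log2 fold change of the 6 was 0.04, against -0.01 over all tested genes. Rhbdf2, which encodes iRhom2, a partner that TNF's sheddase ADAM17 needs, stood at 17.9 ± 3.09 CPM with IL1B and 4.95 ± 1.92 CPM with vehicle (3.73-fold, edgeR adjusted p = 1.3e-06). Adam17 itself stood at 42.1 ± 3.28 and 38.9 ± 1.01 CPM in IL1B and vehicle libraries and did not pass (edgeR adjusted p = 0.458). Gsdmd, the pore through which mature IL-1 beta leaves cells, rose 1.75-fold, and the protease gene Furin fell 1.25-fold (edgeR adjusted p 3.8e-04 and 0.0090). Rhbdf1, the related iRhom1 gene, stayed below the filter with 46 counts over the IL1B and 12 over the vehicle libraries, and passed with no low-count filter (log2 fold change 2.31, edgeR adjusted p = 4.3e-05). Casp1, whose product cuts pro-IL-1 beta, had 7 counts over the IL1B and 3 over the vehicle libraries.

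Of 11 genes for proteins that shorten or extend the life of cytokine mRNAs, 10 were tested, 3 rose and none fell. Over all tested genes 7.76% were higher and 3.25% lower. The median log2 fold change of the 10 was 0.09, against -0.01 over all tested genes. DESeq2, limma-voom and edgeR's unadjusted p at 0.05 gave 0 lower. None lower among 10 genes is near the share over all genes and is not read further. Zc3h12a, the nuclease Regnase-1 that cuts Il6 mRNA, stood at 4.67 ± 1.23 CPM with IL1B and 0.810 ± 0.274 CPM with vehicle (5.44-fold, edgeR adjusted p = 2.4e-05). It passed the filter through its IL1B libraries, with at most 1.18 CPM in a vehicle library. Tial1 rose 1.55-fold and Rc3h1, which encodes Roquin-1, 1.43-fold (edgeR adjusted p 3.0e-07 and 0.0038). Zfp36, which encodes the ATTTA-binding decay factor tristetraprolin, stood at 5.67 ± 1.39 and 6.51 ± 1.32 CPM in IL1B and vehicle libraries and did not pass (edgeR adjusted p = 0.715).

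Most other cytokine genes were hardly read. The counts of called genes below stand beside 7.76% higher and 3.25% lower over all tested genes. Of 15 further TNF-family ligands 3 passed the filter and 1 was called, Tnfsf15, at 4.41 ± 1.33 CPM with IL1B and 1.07 ± 0.717 CPM with vehicle (4.29-fold, edgeR adjusted p = 8.6e-04). Tnfsf15 passed the filter through its IL1B libraries. Of 33 further interleukins 1 passed the filter, Il4 (edgeR adjusted p = 0.236), and 11 had no count in any library. Il4 passed neither with DESeq2 nor limma-voom, nor at edgeR's unadjusted p of 0.05. Of 17 further growth-factor cytokines 9 were tested and 2 rose: Gdf15, a stress-induced member of the TGF-beta family, at 27.8 ± 1.02 CPM with IL1B and 8.45 ± 1.56 CPM with vehicle, and Tgfb1, 1.81-fold (edgeR adjusted p 6.8e-09 and 0.0011). Of 36 chemokines 10 were tested and 7 rose, with a median log2 fold change of 3.46 beside 2.67 for the 8 tested non-chemokine cytokines. The medians were not compared by a test, and both sets hold genes that passed the filter through their IL1B counts. These were 4 of the 8 cytokines and, among the chemokines, included Cxcl1 and Ccl2 (2 vehicle counts each) and Cxcl2 and Ccl20 (0 each). Both medians, and the count of chemokines called, thus favour higher values by construction and are not read further. Also called higher were Cxcl10, Cxcl12 and Cxcl16, with 65, 262 and 755 counts over the vehicle libraries.

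**Figure D5:**
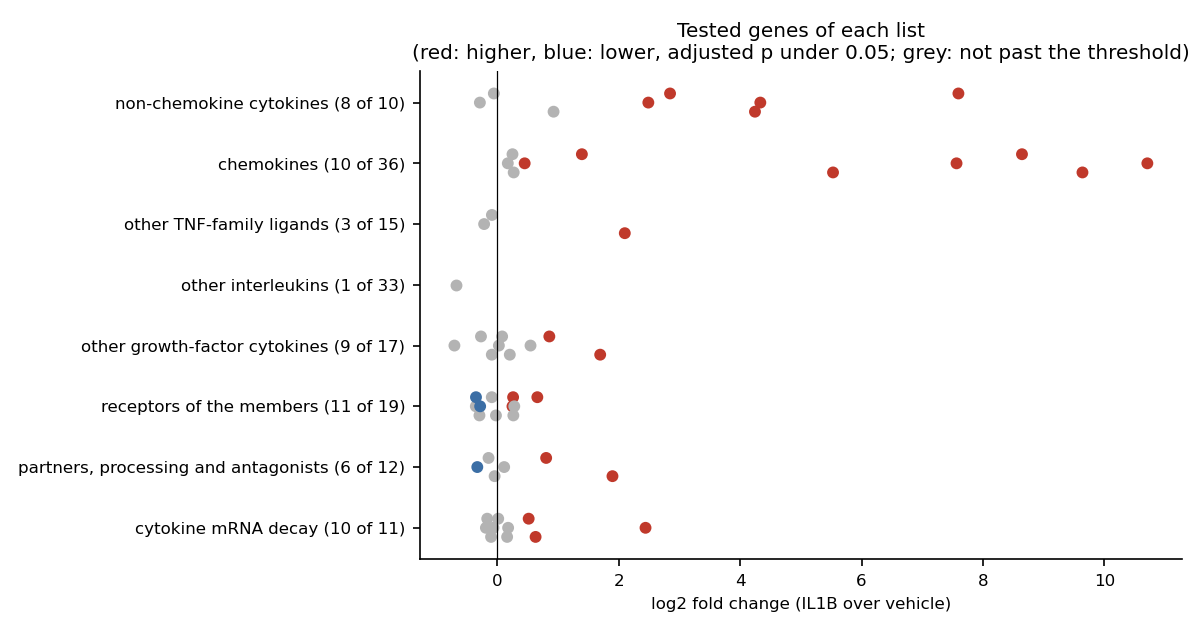
log2 fold change of IL1B over vehicle for every tested gene of the cytokine set and the related lists (tested of listed in brackets); red and blue mark genes called higher and lower and grey the rest. The highest receptor gene, Il6st, is at 0.66. Of the 5 cytokines above 2, Tnf, Il15 and Il23a passed the filter through their IL1B counts, and Csf1 and Tnfsf10 in vehicle libraries as well. Over all 12480 tested genes, 84 were called higher by at least 4-fold.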

How the data were processed

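Raw counts of 7 libraries were deposited by the authors as 1 table of whole numbers by gene symbol. Per the submitters' processing notes the study used mouse build mm10 and, without stated roles, STAR, RSEM, HOMER, Bowtie2, DESeq2 and R 4.1.0, among others; for this table the counter, annotation, strand setting and handling of multi-mapped reads are unknown from the sources used here. Vehicle columns match titles by number. The table numbers its IL1B columns 1 to 3 and the titles are numbered 1, 3 and 4, so those columns were assigned to the group only.

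The tests ran in R 4.3.3, with edgeR 4.0.16 as the main tool: filterByExpr (about 1.64 CPM in at least 3 libraries), TMM scaling and the quasi-likelihood F test over all 7 libraries, without covariates. SE is the size of the log2 difference divided by the root of the F statistic. It is approximate, and it and the fit's 95% intervals are too small where vehicle counts are few, as for Tnf and Il15. Alternatives were scaling by RLE, upper quartile or total count, other filters, DESeq2 1.42.0, limma-voom (limma 3.58.1), and leaving out each library; leaving out the second library of each group was added after seeing the data. Count ratios carry exact 95% intervals from summed counts over scaled library sizes, and intervals and floors cover counting error only. The deposited counts ran from 5335607 to 7513934 per library. Gene positions and exon lengths come from GENCODE M21 (GRCm38, the assembly of mm10), and 3′ UTRs from principal transcripts. Older symbols were matched for 3 list genes (Sppl2a, Sppl2b and Adgre1) and 1 list symbol, Amy2a1, was not matched. The edgeR, DESeq2 and limma-voom code was tested on simulated data.

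The 10 genes and the lists were chosen with earlier results of these data known. Named were the 10 genes, the 5 genes most correlated with Csf1, up to 3 called members of each list and the highest member of each marker list. The other genes named (Lifr, Ptprz1, Tnfrsf1a, Csf1r, Adam17, Casp1, Il12b, Zfp36, Hnrnpd, Ptprc, Pdx1, Mafa, Nkx2-2, Rhbdf1, Tgfb2, Cxcl2, Cxcl5, Cxcl12, Cxcl16, Ccl20, Il4, Il27, and the flanking Nfkbil1, Lta, Ltb, Stat2, Pan2 and Gm11110) were chosen after their values were seen. The other marker lists gave 3 of 12 stromal and endothelial genes tested and none called (highest, Vwf and Col1a2 at 2.63 and 2.52 CPM with IL1B), 3 of 10 exocrine and duct genes tested and none called (Spp1, 14.9 CPM with IL1B), and 4 of 9 other islet genes tested with 1 lower (Irx2; the highest, Sst, had 293 CPM with IL1B). For the leukocyte, stromal and exocrine lists DESeq2 and limma-voom called 0 genes, and none had an unadjusted edgeR p under 0.05.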

Additional observations from a re-analysis of the deposited data

Results flagged for a closer look

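In the vehicle group, 3 of 8 sets of values (1 per cytokine with any vehicle count) failed Dixon's test because 1 library lay apart; for normally spread values chance does this in about 1 of 20 (0.4 of 8), a rate that does not hold where most libraries have 0 counts, as for Tnf. Tnf had 0.313 CPM in the second vehicle library, which is 2 counts, and 0 in the other 3. Lif had 1.71 CPM in the first vehicle library and 3.53 to 3.70 CPM in the other 3; without it the log2 fold change of Lif was -0.53 (edgeR adjusted p = 0.357). Tnfsf9 had 3.53 CPM in the third vehicle library and 5.53 to 5.79 CPM in the other 3; without it the log2 fold change of Tnfsf9 was -0.19 (edgeR adjusted p = 0.693). The flagged libraries differ from gene to gene.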

How the results depend on the processing

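Csf1, Tnf, Tnfsf10, Il15 and Il23a were higher past the threshold in all 15 alternatives, and Lif and Tnfsf9 passed in none. Il1b passed without the second vehicle library (log2 fold change 1.34) and not in the other 14. Tnfsf9, near 0 with all libraries, changed sign without IL1B library 2 (0.0065), without vehicle library 2 (0.01) and without both (0.0692); without vehicle library 3 it was -0.19. With no low-count filter, 2 further TNF-family ligands were higher in place of 1 (Ltb added) and 1 interleukin in place of 0 (Il27, named after its values were seen), and Rhbdf1, Tgfb2 and Cxcl5 were also added. Rhbdf1 passed too with a minimum of 1 CPM in 3 libraries and without IL1B library 1. The 2 lower receptor genes were 0 with DESeq2 and 1 with limma-voom, and leaving out single libraries gave 0 to 2 lower and 1 to 3 higher receptor genes. Over all genes, 968 rose and 406 fell; leaving out single libraries gave 769 to 1128 and 252 to 589, and leaving out the second library of each group gave 676 lower. The looser motif was in 50.8% of all promoters against 8.46% for the consensus. The cause of these changes was not tested. Depth limits Il6, Il34, Il15, Il23a, Lif and Il1b, whose libraries hold at most 30 counts each. No paired analysis was possible because the numbers of the IL1B columns cannot be tied to those of the titles.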
